A study of Homo sapiens with 12 samples.

Results

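Plasminogen, its activators, their receptor and serpins of the same system were read by 10 features of 8 genes, among 45033 features of the array, 18866 of which could be named for 17185 genes. The genes were PLG, PLAU, PLAT, PLAUR, SERPINF2, SERPINB5, SERPINE2 and SERPINB2, and a feature was taken as a member where its RefSeq accession maps to one of these symbols. PLAUR had 3 features and each of the other genes had 1. The genes were selected on earlier results of these same arrays, from the values of the 4 groups compared here, so all differences between these groups are given as a description and support nothing beyond it.

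The cells were HCT116, a human colon cancer line, in a p53+/+ and a p53-/- form. Both were kept for 18 hours with DMSO, the solvent, or with inauhzin (INZ, 4 μM), a small molecule that activates p53. Each of the 4 groups, p53+/+ with DMSO, p53+/+ with INZ, p53-/- with DMSO and p53-/- with INZ, has 3 one-colour arrays, which the labels call biological replicates. A single line and its p53-null derivative stand for the genotypes, so a difference between genotypes cannot be told apart from other differences between these 2 lines. The deposited RMA values (a background-corrected, between-array normalized intensity) were put on the log2 scale, on which 1 unit is a 2-fold difference.

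Plasminogen is the inactive precursor of plasmin, a serine protease that dissolves fibrin and cuts matrix proteins. The urokinase-type activator (uPA, from PLAU) and the tissue-type activator (tPA, from PLAT) cut plasminogen to plasmin, and the urokinase receptor (from PLAUR) holds uPA on the cell surface, where tumour cells of the colon are known to use it during invasion. Serpins are protein inhibitors that trap such proteases: alpha-2-antiplasmin (from SERPINF2) blocks plasmin itself, while protease nexin 1 (SERPINE2) and plasminogen activator inhibitor 2 (SERPINB2) block the activators. Maspin (SERPINB5) has the serpin fold without acting as a classical inhibitor and is a known target gene of p53.

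Of the 8 genes, SERPINF2 was the one with a difference past the threshold. Its mRNA was low in p53-/- cells with DMSO and 7.69-fold higher with INZ in the same genotype, and it was 3.89-fold higher in p53+/+ than in p53-/- cells with DMSO. In p53+/+ cells SERPINB5 was 2.07-fold higher with INZ (95% interval 1.34 to 3.21), and without p53 it was 1.07-fold higher (0.69 to 1.66), and neither passed. PLAU was 1.44-fold higher in p53+/+ than in p53-/- cells with DMSO and 1.83-fold higher with INZ, with no overlap between the groups, and did not pass. Features of PLG and SERPINB2 stayed below the median feature of the array on most arrays.

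Calls were made with limma over all features, at a Benjamini-Hochberg adjusted p under 0.05. With INZ in p53+/+ cells 0 of 10 member features were called, beside 0.862% of all features, and with INZ in p53-/- cells 1 of 10, beside 1.48%. For the difference between the genotypes in the INZ effect the count was 0 of 10 (0.0178% of all features). Between the genotypes it was 1 of 10 with DMSO (0.211%) and 0 of 10 with INZ (0.484%). At an unadjusted p under 0.05 the member counts were 1, 1, 3, 4 and 3 in the same order, beside 14.4%, 13.6%, 4.71%, 12% and 10.3% of all features. Since the choice of the genes used these values, nothing is read from these counts.

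The groups did not overlap for 4 of 10 member features with INZ in p53+/+ cells (15.9% of all features) and for 4 with INZ in p53-/- cells (25.7%). Between the genotypes this held for 5 features with DMSO (17.6%) and for 4 with INZ (15.6%). With INZ the 10 features had a median log2 difference of 0.23 where p53 was present and -0.17 where it was absent, beside -0.03 in both for all features. For p53+/+ against p53-/- cells it was 0.26 with DMSO and 0.42 with INZ, beside 0.02 in both for all features.

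**Figure D1:**
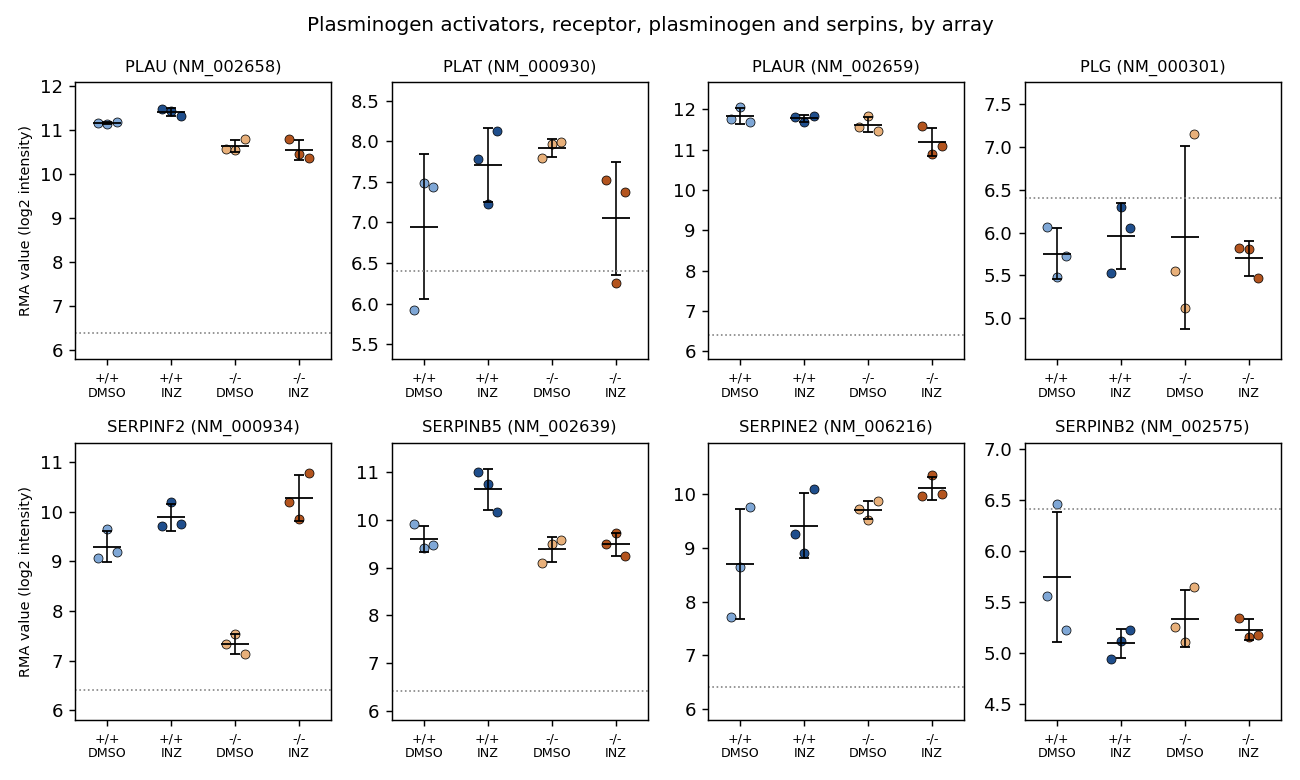
Log2 RMA values of the 8 genes by array; PLAUR is shown by its feature with the highest mean. Each point is an array, the horizontal bar is the mean of 3 arrays, the error bar is 1 SD, and the dotted line marks the median feature at 6.41. SERPINF2 lies between 7.13 and 7.54 on the p53-/- arrays with DMSO and at 9.06 or above on the other 9 arrays, and PLAU is higher on all 6 p53+/+ arrays than on all 6 p53-/- arrays.

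The labels were checked by p53 mRNA (NM_000546), which lay between 7.03 and 8.02 on the 6 p53-/- arrays. In p53+/+ cells it was 7.73, 9.46 and 10.18 with DMSO and 9.82, 9.83 and 12.36 with INZ, so the array labelled p53+/+ DMSO 1 lies within the range of the p53-/- arrays. CDKN1A (NM_078467), the p21 inhibitor of cyclin-dependent kinases and a p53 target, was 1.85 log2 units higher with INZ in p53+/+ cells (limma, adjusted p = 0.0114). A second CDKN1A feature, NM_000389, was 1.57 higher (adjusted p = 0.0127). In p53-/- cells the INZ differences of these features were -0.47 and -0.88. With DMSO, CDKN1A was 0.43 and 0.44 higher in p53+/+ than in p53-/- cells (limma, adjusted p = 0.568 and 0.504), so neither feature was called between the genotypes there. The arrays p53+/+ DMSO 1 and p53+/+ INZ 3 stood apart from their groups on the first principal component, at -175.7 and 92.4, where the other arrays of their groups lay between -65.6 and -26.7. On this component the p53-/- arrays were at 14.1, -21.3 and 2.2 with DMSO and at 74.9, 70.6 and 104.1 with INZ. The array p53+/+ INZ 3 thus lay within the range of the p53-/- arrays with INZ. The median SD of a feature within a group was 0.42 and 0.40 in p53+/+ cells and 0.31 in both groups of p53-/- cells. Of 11 markers of colon epithelium, 6 lay above the median feature, among them EPCAM and CDH1, while KRT20, VIL1, CDX1, CEACAM5 and LGALS4 lay below it. Above the median feature were 1 of 6 leukocyte markers (CD68), 1 of 6 fibroblast markers (COL1A1), 0 of 5 endothelial and 0 of 5 hepatocyte markers.

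PLG (NM_000301), the zymogen that the liver supplies to plasma, had log2 values of 6.06, 5.48 and 5.73 in p53+/+ cells with DMSO and 5.53, 6.29 and 6.05 with INZ. Without p53 they were 5.55, 5.12 and 7.15 with DMSO and 5.82, 5.81 and 5.47 with INZ. The single array p53-/- DMSO 3 was high, and all other arrays lay below the median feature, with the groups overlapping. The p53+/+ cells had an INZ difference of 0.20 (95% interval -0.72 to 1.13) and the p53-/- cells one of -0.24 (-1.17 to 0.68), and the signs of the latter and of the genotype difference with DMSO turned without the array p53-/- DMSO 3 (0.36 and 0.42). PLG shares long stretches of sequence with LPA and with PLGLB1, so what this feature reads is uncertain. Their own features were dim too, with means of 5.45 for LPA and 5.79 for PLGLB1 over 12 arrays.

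PLAU (NM_002658) encodes uPA. Its log2 values in p53+/+ cells were 11.16, 11.13 and 11.18 with DMSO and 11.48, 11.44 and 11.32 with INZ, and in p53-/- cells 10.57, 10.55 and 10.79 with DMSO and 10.80, 10.46 and 10.37 with INZ. Each of the p53+/+ arrays was above each of the p53-/- arrays. With INZ, p53+/+ cells were 0.87 log2 units higher (95% interval 0.36 to 1.39, limma, adjusted p = 0.174), and with DMSO 0.53 (0.01 to 1.04, adjusted p = 0.409). The adjusted p with INZ was 0.0415 without the 2 arrays that stand apart, for a difference of 0.92. The p53+/+ values with INZ were all above those with DMSO, by 0.25 on average (-0.26 to 0.77), an amount the shared error of the fit does not tell from 0. In p53-/- cells the groups overlapped (-0.09, -0.61 to 0.42).

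PLAT (NM_000930) encodes tPA, which endothelium releases. Its log2 values were 5.92, 7.48 and 7.44 in p53+/+ cells with DMSO and 7.78, 7.22 and 8.13 with INZ, and 7.79, 7.97 and 7.99 in p53-/- cells with DMSO and 7.52, 6.25 and 7.38 with INZ. The p53-/- arrays with DMSO were higher than those with INZ and than the p53+/+ arrays with DMSO, and the lowest value of all was that of the array p53+/+ DMSO 1. The p53+/+ cells had an INZ difference of 0.76 (95% interval -0.18 to 1.71) and the p53-/- cells one of -0.87 (-1.81 to 0.08). The 2 effects differed by 1.63 (0.30 to 2.96), with an unadjusted p of 0.0199 and an adjusted p of 1.00 (limma). Without the array p53+/+ DMSO 1 the p53+/+ value was 0.25, without both arrays that stand apart it was 0.04, and with the lower quartile as a covariate it was 0.05. Without the array p53-/- INZ 2 the p53-/- value was -0.47, and with the lower quartile as a covariate it was -1.52. The summed intensity of the 5 endothelial markers overlapped between DMSO (185.7 to 234) and INZ (166.9 to 225.2) in p53-/- cells. All 5 lay below the median feature, where a change may not show, so nothing is read from this sum about PLAT.

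PLAUR was read by 3 features for transcript variants that share most of their sequence, so they are not independent readings of the gene. NM_002659 had log2 values of 11.75, 12.07 and 11.68 in p53+/+ cells with DMSO, 11.80, 11.68 and 11.84 with INZ, 11.57, 11.83 and 11.47 in p53-/- cells with DMSO, and 11.58, 10.90 and 11.08 with INZ. NM_001005376 ranged from 10.17 to 11.11 and NM_001005377 from 10.12 to 11.11 over the 12 arrays. With INZ, p53+/+ cells were higher than p53-/- cells by 0.59 (95% interval 0.02 to 1.15), 0.44 (-0.08 to 0.97) and 0.39 (-0.17 to 0.95) for NM_002659, NM_001005376 and NM_001005377, with no overlap between groups for the first and the second. The adjusted p values were 0.470, 0.570 and 0.645 (limma). All 3 features had INZ differences below 0 in both genotypes, from -0.06 to -0.43, none past the threshold.

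The 250 bases before the start site are shown for PLAU, PLAUR and SERPINB5, the last being the member with the known link to p53. The means of PLAU, of each PLAUR feature and of SERPINB5 were higher in p53+/+ than in p53-/- cells with both treatments. The sequences are from RefSeq on GRCh38.p14, whose table held 9 promoter entries for 6 of the 8 genes. Capitals mark TGANTCA, a loose form of the core bound by AP-1 with any base in the middle, and GGGCGG, the GC box bound by Sp1. Each was searched on both strands.
PLAU, chr10:73910882-73911131, plus strand: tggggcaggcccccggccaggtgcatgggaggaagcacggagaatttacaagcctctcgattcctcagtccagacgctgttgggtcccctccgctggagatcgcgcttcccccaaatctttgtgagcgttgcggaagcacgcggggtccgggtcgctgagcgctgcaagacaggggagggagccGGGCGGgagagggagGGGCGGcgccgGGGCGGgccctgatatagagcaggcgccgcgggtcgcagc
PLAUR, chr19:43670170-43670419, minus strand: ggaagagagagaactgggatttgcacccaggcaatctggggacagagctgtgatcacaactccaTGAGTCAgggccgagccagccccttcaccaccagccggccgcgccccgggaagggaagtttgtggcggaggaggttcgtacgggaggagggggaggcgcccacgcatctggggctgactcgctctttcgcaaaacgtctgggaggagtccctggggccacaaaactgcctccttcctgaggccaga
SERPINB5, chr18:63476708-63476957, plus strand: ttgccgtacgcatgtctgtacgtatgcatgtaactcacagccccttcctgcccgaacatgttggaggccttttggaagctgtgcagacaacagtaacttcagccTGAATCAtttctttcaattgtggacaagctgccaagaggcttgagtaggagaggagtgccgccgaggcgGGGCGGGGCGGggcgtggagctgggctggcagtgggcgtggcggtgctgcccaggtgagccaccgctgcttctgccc
The table has 2 entries for PLAU with different starts, and the one at chr10:73910360-73910609 holds neither motif. The PLAU entry shown has 3 GC boxes, whose first bases lie 66, 51 and 40 bases before its start. PLAUR has 1 match to TGANTCA, the stretch TGAGTCA at 186 bases. SERPINB5 has 1 match, the stretch TGAATCA at 146 bases, and 2 GC boxes at 77 and 72 bases that share a base. Among 35116 promoter entries of the same length, 6.57% hold TGANTCA and 42.6% hold GGGCGG. The p53 half-site with all 10 positions matched was found in 5.57% of all entries and in 0 of the 9 entries of the members. No mismatch was allowed, so p53 elements with a mismatched base were not sought. At this share and with so few entries, nothing is read from the count of 0. SERPINB2, which the array read as dim, also holds a match to TGANTCA, the stretch TGAATCA, and a TATAAA box 30 bases before its start, which 10.7% of all entries hold. A match is a stretch of letters and not a measured binding site.

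SERPINF2 (NM_000934) encodes alpha-2-antiplasmin, the main fast inhibitor of plasmin, which in the body comes largely from the liver. The log2 values in p53-/- cells were 7.33, 7.54 and 7.13 with DMSO and 10.20, 9.85 and 10.78 with INZ. In p53+/+ cells they were 9.06, 9.65 and 9.18 with DMSO and 9.71, 10.19 and 9.75 with INZ. The p53-/- arrays with DMSO were the low group, the p53-/- arrays with INZ reached the range of the p53+/+ arrays with INZ, and in p53+/+ cells the arrays with INZ lay just above those with DMSO. SERPINF2 rose with INZ in p53-/- cells by 2.94 log2 units (95% interval 2.30 to 3.59, or 4.91- to 12.05-fold, limma, adjusted p = 0.000303). In each of 21 alternatives the difference stayed between 2.69 and 3.16 and the adjusted p between 1.51e-05 and 0.00355.

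In p53+/+ cells SERPINF2 was 0.59 higher with INZ (95% interval -0.06 to 1.23, adjusted p = 0.395). The difference between the genotypes in the INZ effect was -2.36 (-3.27 to -1.44), with an unadjusted p of 7.5e-05 and an adjusted p of 0.126 (limma), where 8 features of the table passed. With array weights it was -2.43, with an adjusted p of 0.0396. With DMSO, SERPINF2 was higher in p53+/+ cells by 1.96 (1.31 to 2.61, or 2.49- to 6.10-fold, limma, adjusted p = 0.0193). This call was lost without the array p53+/+ DMSO 2 (adjusted p = 0.0795) and without p53-/- DMSO 1, 2 or 3 (0.0960, 0.0579 and 0.110), with differences of 1.78 to 2.06. With INZ the genotypes differed by -0.40 (-1.04 to 0.25, adjusted p = 0.695).

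Since the liver is the usual source of this protein, the hepatocyte list is given beside it. All 5 of its markers (ALB, APOA1, TTR, APOB and SERPINA1) lay below the median feature, and their summed intensity was 197.4 to 214.9 in p53-/- cells with DMSO and 202.9 to 275 with INZ. The sum of the 6 leukocyte markers was 302.6 to 393.6 in p53-/- cells with DMSO and 606.7 to 663.3 with INZ. In p53+/+ cells it was 299.8 to 435.8 with DMSO and 411 to 1117 with INZ. CD68 was the one leukocyte marker above the median feature, and its part in the result was not tested. The lower quartile of intensity was 45.91 to 46.61 on the p53-/- arrays with DMSO and 44.18 to 45.13 on those with INZ, without overlap. With this quartile as a covariate the call held. In these cells the quartile cannot be told apart from INZ, so nothing is read from that fit about intensity.

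**Figure D2:**
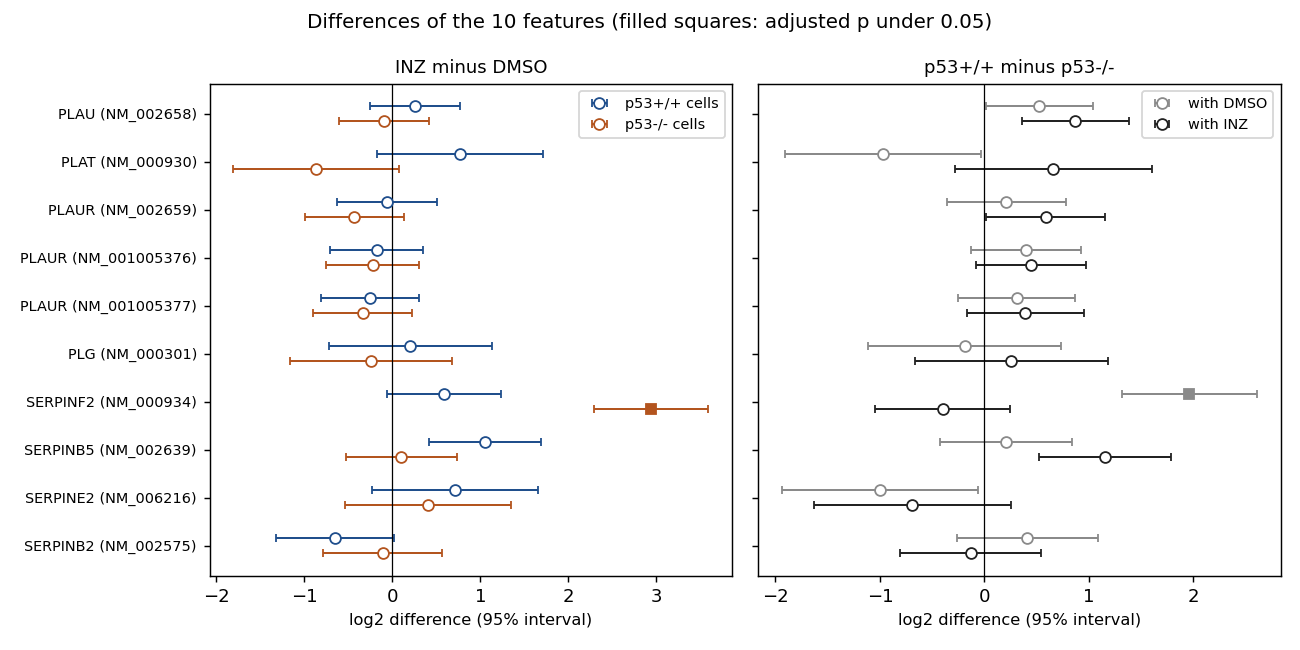
Log2 differences of the 10 member features with 95% intervals from limma, INZ minus DMSO in each genotype on the left and p53+/+ minus p53-/- cells with each treatment on the right. Filled squares mark an adjusted p under 0.05 over all features and open circles the rest. SERPINF2 stands at 2.94 for INZ in p53-/- cells and at 1.96 for the genotypes with DMSO, the 2 filled points.

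SERPINF2 lies on chromosome 17 next to SERPINF1, a serpin of the same clade whose product, pigment epithelium-derived factor, does not inhibit proteases. Of the 3 nearest annotated genes on each side, 5 had a named feature. SERPINF1 was dim, with a mean of 5.56 and an INZ difference of -0.18 in both genotypes. The INZ difference in p53-/- cells was 0.61 for WDR81, 0.46 for SMYD4, 0.36 for PRPF8 and 1.17 for RPA1, with adjusted p values from 0.528 to 0.839 for the 5 neighbours (limma), and none was called in any comparison. RPA1, a subunit of the single-stranded DNA binding protein, was 6.78 on the array p53+/+ DMSO 1 and 10.13 to 12.12 on the other 11 arrays. On the p53-/- arrays it was 10.13 to 10.72 with DMSO and 11.34 to 12.12 with INZ. SMYD4 was 8.36 to 8.54 with DMSO and 8.71 to 9.05 with INZ on these arrays, and PRPF8 was 12.78 to 13.21 and 13.22 to 13.40. So 3 of the 5 neighbours, like SERPINF2, did not overlap between these groups, which held for 25.7% of all features.

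**Figure D3:**
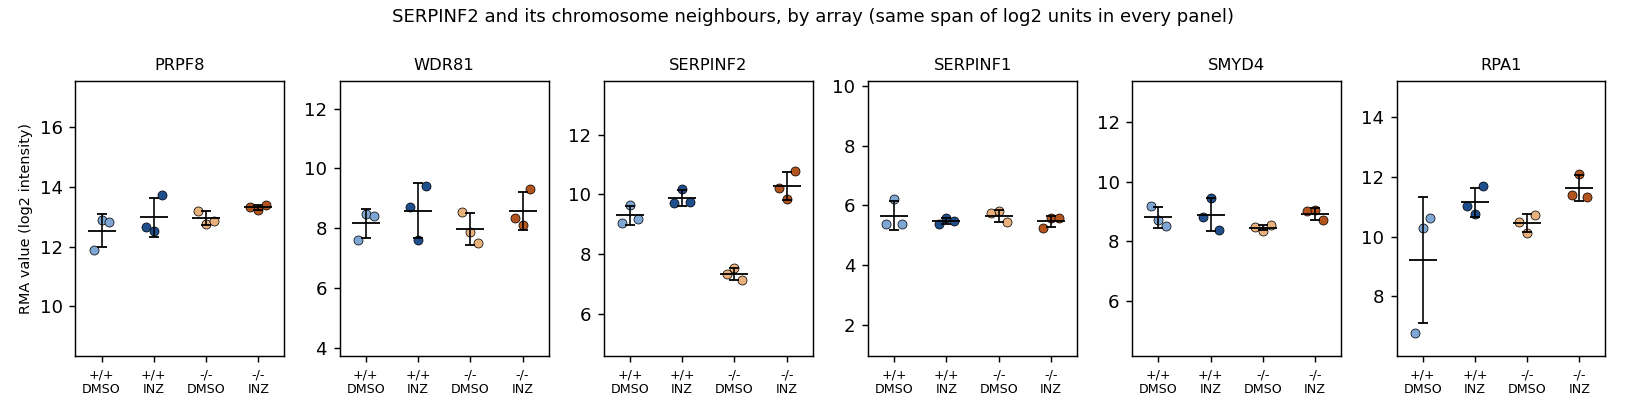
Log2 RMA values of SERPINF2 and of 5 chromosome neighbours by array, in chromosome order, with every panel spanning the same number of log2 units. Points are arrays, bars are means of 3 arrays and error bars are 1 SD. In p53-/- cells SERPINF2 goes from 7.13 to 7.54 with DMSO to 9.85 to 10.78 with INZ, and PRPF8, SMYD4 and RPA1 also lie higher with INZ without overlap, by smaller amounts, while WDR81 and SERPINF1 overlap.

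SERPINB5 (NM_002639) encodes maspin, which epithelial cells make and which is lost in some carcinomas. Its log2 values in p53+/+ cells were 9.91, 9.41 and 9.47 with DMSO and 11.02, 10.76 and 10.17 with INZ. The p53-/- values were 9.09, 9.49 and 9.58 with DMSO and 9.49, 9.73 and 9.25 with INZ. The 3 p53+/+ arrays with INZ were above all other arrays, and the remaining 3 groups overlapped. With INZ in p53+/+ cells the difference was 1.05 (95% interval 0.42 to 1.68), with an unadjusted p of 0.00305 and an adjusted p of 0.126 (limma). Without p53 it was 0.10 (-0.53 to 0.73). The 2 effects differed by 0.95 (0.06 to 1.84), with an unadjusted p of 0.0385 and an adjusted p of 1.00 (limma).

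With INZ, SERPINB5 was 1.16 higher in p53+/+ than in p53-/- cells (95% interval 0.53 to 1.79, limma, adjusted p = 0.131). Without the array p53+/+ INZ 3, the lowest of its group and one of the 2 that stand apart, the difference was 1.40 with an adjusted p of 0.0261. The INZ difference in p53+/+ cells also passed with array weights (1.32, adjusted p = 0.0407) and with the lower quartile as a covariate (1.50, adjusted p = 0.0440), and without each array in turn it lay between 0.87 and 1.29 with adjusted p values of 0.105 to 0.272. On chromosome 18, SERPINB5 lies in a cluster of clade B serpins. The features of SERPINB12, SERPINB13, SERPINB4, SERPINB3, SERPINB11, SERPINB7, SERPINB10 and SERPINB8 had means of 5.40 to 6.13, all below the median feature, and none was called. SERPINB3 and SERPINB4 had INZ differences of 0.64 and 0.62 in p53+/+ cells and of -0.26 and -0.30 in p53-/- cells. Their effects differed between the genotypes by 0.91 and 0.92, with unadjusted p of 0.0434 and 0.0463 (limma). For SERPINB12, SERPINB13, SERPINB11, SERPINB7, SERPINB10 and SERPINB8 this difference lay between -0.46 and 0.70. For SERPINB2, a member that lies in the same cluster, it was -0.54. SERPINB3 and SERPINB4 are near-identical copies, so their features may read both.

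SERPINE2 (NM_006216) encodes protease nexin 1, which also inhibits thrombin. In p53+/+ cells its log2 values were 7.71, 8.63 and 9.76 with DMSO and 9.26, 8.90 and 10.08 with INZ. The p53-/- values were 9.71, 9.52 and 9.86 with DMSO and 9.95, 10.34 and 10.00 with INZ. The p53+/+ arrays with DMSO were spread from 7.71, on array 1, to 9.76, while the p53-/- arrays stayed between 9.52 and 10.34. With DMSO, SERPINE2 was 1.998-fold lower in p53+/+ than in p53-/- cells (95% interval 1.04- to 3.84-fold, limma, adjusted p = 0.394). On the log2 scale this difference was -0.998, and it was -0.502 without the array p53+/+ DMSO 1, -1.53 without p53+/+ DMSO 3 and -0.296 with the lower quartile as a covariate. The INZ difference of 0.71 in p53+/+ cells (-0.23 to 1.65) was -0.12 without the 2 arrays that stand apart, so its sign rests on them. The p53-/- arrays with INZ were all above those with DMSO, by 0.40 (-0.54 to 1.34, adjusted p = 0.754).

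SERPINB2 (NM_002575) encodes plasminogen activator inhibitor 2, which monocytes and keratinocytes make. Its log2 values were 5.55, 6.46 and 5.23 in p53+/+ cells with DMSO and 4.94, 5.11 and 5.22 with INZ, and 5.25, 5.11 and 5.64 in p53-/- cells with DMSO and 5.34, 5.16 and 5.17 with INZ. The array p53+/+ DMSO 2 reached the median feature and the other 11 arrays were below it. The differences were -0.65 with INZ in p53+/+ cells (95% interval -1.33 to 0.02, limma, adjusted p = 0.364) and -0.11 in p53-/- cells (-0.78 to 0.57). The former was -0.30 without the array p53+/+ DMSO 2. At such intensities a change of the mRNA may not show.

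**Figure D4:**
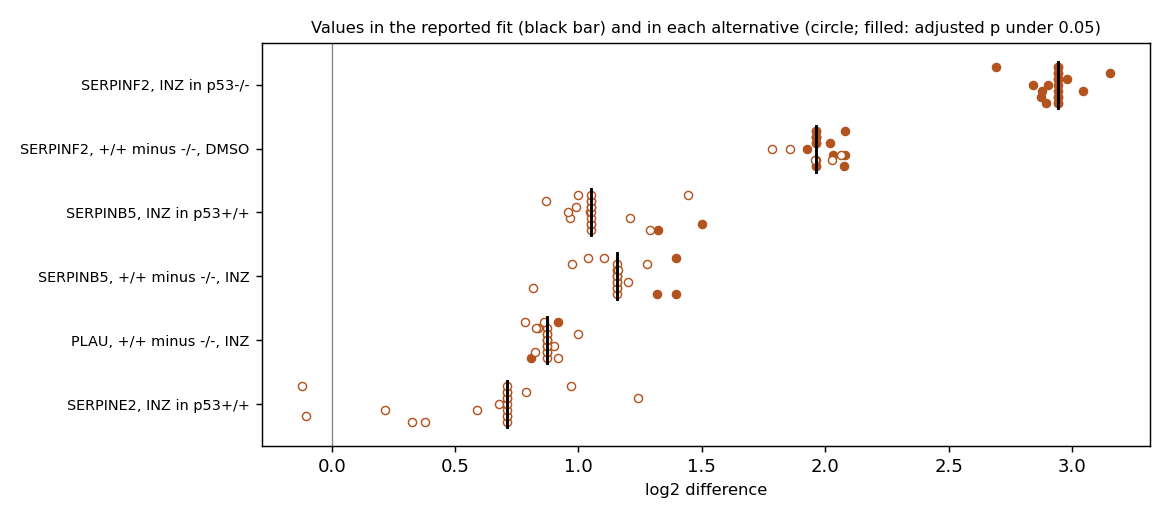
Log2 differences of SERPINF2, SERPINB5, PLAU and SERPINE2 in the reported fit (black bar) and in each alternative (circles, filled where the adjusted p is under 0.05). SERPINF2 with INZ in p53-/- cells is filled throughout, between 2.69 and 3.16, while SERPINE2 with INZ in p53+/+ cells crosses 0 in 2 alternatives.

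Over the 84 other genes of the system with a named feature, drawn up as 5 lists with earlier results of these data known, 2 passed in 1 comparison (2.38%, beside 0.211% of all features) and 0 in the other 4. Both were among the 13 other serpins and inhibitors of plasmin and the activators, 1 higher and 1 lower in p53+/+ cells with DMSO. TFPI (NM_006287), the inhibitor of the tissue factor pathway of coagulation, was 9.24, 9.40 and 8.93 in p53+/+ cells with DMSO and 7.64, 7.34 and 7.99 in p53-/- cells with DMSO. These groups did not overlap, and TFPI was 2.91-fold higher in p53+/+ cells (1.54 log2 units, 95% interval 0.97 to 2.11, limma, adjusted p = 0.0310). With INZ the p53+/+ values of TFPI were 8.37, 8.50 and 8.18 and the p53-/- values 7.87, 7.74 and 7.62, a difference of 0.61 (0.04 to 1.17, adjusted p = 0.452). SERPINA5, the protein C inhibitor, which also inhibits uPA, had a genotype difference of 1.88 with DMSO (1.08 to 2.69, adjusted p = 0.0703).

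The lists of 11 other clade B serpins, 20 plasminogen receptors and partners of the urokinase receptor, 17 serine proteases and 23 substrates and proteases downstream of plasmin each had 0 calls in the 5 comparisons. LYPD3, a relative of the urokinase receptor, was higher with INZ by 1.53 in p53+/+ cells (95% interval 0.64 to 2.41, limma, adjusted p = 0.116) and by 1.50 in p53-/- cells (0.62 to 2.39, adjusted p = 0.0956). The plasminogen receptor ANXA2 had differences of 1.02 (-0.02 to 2.07) and 0.65 (-0.40 to 1.69), and its partner S100A10 of -0.41 (-1.09 to 0.28) and -0.27 (-0.96 to 0.42). On p53+/+ DMSO 1, an array that stands apart, ANXA2 was 9.84, beside 11.56 and 12.26 on the other p53+/+ arrays with DMSO. MMP3, a matrix protease that plasmin can activate, was dim with a mean of 5.41, at 0.95 in p53+/+ and -0.76 in p53-/- cells, and the difference between these effects was 1.71 (0.76 to 2.65, adjusted p = 0.636). The chains of fibrinogen, the precursor of fibrin, had means of 5.45 (FGA), 5.90 (FGB) and 5.80 (FGG), all dim.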

How the data were processed

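NimbleGen arrays of 1 colour read the RNA of 12 HCT116 samples, 3 in each of 4 groups. The table that the authors deposited holds RMA values (linear intensity, 16.17 to 61942). For RMA, version and options were not given in the sources used here. Unprocessed probe signals were not used. The values were log2-transformed with a pseudocount of 0. The number of arrays limits the precision, and no depth applies.

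Names came from the platform table (18188 features) and from RefSeq accessions (678, SERPINB2 among them). The members and the lists of related genes were chosen with earlier results of these data known. The genes named are all members, list genes past the threshold or needed for reading the members, the 3 genes most alike each member, and checks of the labels. LYPD3, SERPINA5, MMP3, the SERPINB3 and SERPINB4 differences and the RPA1 and ANXA2 array values were singled out after their values were seen. The other list gene that passed is counted but not reported here.

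limma 3.58.1 (R 4.3.3) was fitted with 1 mean per group over 12 arrays, no trend and no block, for 5 comparisons, with Benjamini-Hochberg adjustment over 45033 features, threshold 0.05 and 95% intervals of the moderated estimates. The script was tested on simulated data. Alternatives were array weights, an intensity trend, quantile normalization, median centring, the lower quartile as a covariate, only bright features, a fit to the compared arrays alone, a minimum of 2-fold, the replicate block, and leaving out arrays. Features below the median feature (6.41) are called dim, since no detection calls were used. Figures were drawn with matplotlib 3.10.9. RT-q-PCR, blots and other assays of the study were not analysed here.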

Additional observations from a re-analysis of the deposited data

How the results depend on the processing

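Of 1030 member values recomputed under the alternatives, 990 kept their sign and their side of the threshold, 26 turned their sign, 6 lost a call and 8 gained one, and of 109 counts of called member features 97 were unchanged. SERPINF2 with INZ in p53-/- cells kept its call in all 21 alternatives. For the genotypes with DMSO the count went from 1 to 0 with only the 6 arrays compared (SERPINF2 1.96, adjusted p = 0.113), with the lower quartile as a covariate (2.03, 0.0598), and, leaving out 1 array, ranged from 0 to 1. For the genotypes with INZ it was 2 without the 2 arrays that stand apart (SERPINB5 1.40, adjusted p = 0.00996; PLAU 0.92, 0.0415) and with array weights (SERPINB5 1.32, 0.0109; PLAU 0.81, 0.0465), and ranged from 0 to 1 leaving out 1 array. For INZ in p53+/+ cells it was 1 with array weights and with the lower quartile as a covariate (SERPINB5), and for the difference between the genotypes 1 with array weights (SERPINF2 -2.43, 0.0396). The cause of these changes was not tested.

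All values whose sign turned were uncalled. Without the 2 arrays that stand apart these were the genotype difference in the INZ effect of PLAUR NM_001005376 (-0.086), PLAUR NM_001005377 (-0.151) and SERPINE2 (-0.520), and SERPINE2 with INZ in p53+/+ cells (-0.119). With array weights they were that difference of the same 3 features (-0.103, -0.045 and -0.034) and PLAU with INZ in p53-/- cells (0.017). With the lower quartile as a covariate they were SERPINE2 with INZ (-0.106 in p53+/+ and -0.342 in p53-/- cells) and SERPINB5 between the genotypes with DMSO (-0.177). Leaving out 1 array in turn, the difference in the INZ effect ranged from -0.071 to 0.157 for PLAUR NM_001005376, from -0.087 to 0.270 for NM_001005377, from -0.186 to 0.839 for SERPINE2 and from -0.156 to 0.857 for PLG. The INZ difference in p53+/+ cells ranged from -0.135 to 0.061 for PLAUR NM_002659, and that in p53-/- cells from -0.653 to 0.360 for PLG, from -0.222 to 0.047 for SERPINB2 and from -0.046 to 0.222 for SERPINB5. PLG between the genotypes with DMSO ranged from -0.597 to 0.416.

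Same-numbered arrays of different groups correlated in their deviations at -0.135 to 0.332. Arrays of different numbers were not set beside them, so this range cannot decide whether the numbers pair the arrays. The reported fit used no pairing. With the replicate block the member counts stayed at 0, 1, 0, 1 and 0, and SERPINF2 with INZ in p53-/- cells stood at 2.94 (adjusted p = 0.00132). Features of PLG and SERPINB2 are near the low end of the array, where a difference may not show. With 3 arrays per group, wide intervals leave modest differences unresolved.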

Other observations

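The genes whose log2 values were most alike those of each bright member over the 12 arrays are given as a description. The 12 points share 4 groups and the arrays that stand apart. For SERPINF2 they were MFHAS1 (Pearson r = 0.911), THEMIS2 (0.909) and ZFYVE19 (0.906). For SERPINB5 they were TRIAP1 (0.950), a known target of p53, MR1 (0.944) and SUSD6 (0.938). For PLAU they were SNCG (0.958), UCP2 (0.953) and PADI3 (0.932), and for PLAUR IDH3G (0.902), AGAP2 (0.900) and TMEM151A (0.891). For PLAT they were MORC2 (0.943), DDIT4 (0.892) and ECE1 (0.874). SERPINE2 was most like RAC1 (0.984), SEC24D (0.981) and TRIT1 (0.980).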
